A study of Mus musculus with 8 samples.

Results

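Aire-expressing medullary thymic epithelial cells (mTEC) were picked from single-cell RNA counts of mouse thymic stroma. A cell was taken when it held at least 3 unique molecular identifiers (UMIs, counted mRNA molecules) of Epcam, Krt8, Krt18 and Krt5, and more of these than of the fibroblast genes Col1a1, Col1a2, Col3a1 and Dcn. It also had to hold 2 or more Aire UMIs, less than 0.1% of its UMIs from the cortical genes Psmb11 and Prss16, and fewer than 3 of the 5 cell cycle genes Mki67, Top2a, Birc5, Ube2c and Cdk1. The rule found 1435 cells among 6882 epithelial cells (TEC) and 9953 cells in all, 74 from 1-week-old and 1361 from 16-week-old animals.

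The stroma came from wild-type C57BL/6 mice, was depleted of CD45-positive cells and was then sorted so that EpCAM1-positive cells were enriched. Cells were measured by CITE-seq, in which mRNA and 27 DNA-tagged surface reagents are counted in the same cell. Per the methods, thymi of several mice were pooled for each age and the pool was loaded on 2 wells, each of which gave an mRNA and a tag library. The replicates of an age were therefore wells of 1 pool, their spread is technical, and no p-value is given for age.

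Aire is a transcriptional regulator through which mTEC express genes that are otherwise restricted to single organs. Peptides of these genes are shown to developing T cells on MHC class II together with co-stimulatory proteins, so that self-reactive cells are deleted or become regulatory T cells. Each organ-restricted gene is known to be made by a small fraction of mTEC at a time.

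Surface values were read from 15-base DNA tags. Those of the 8 reagents on which the surface results turned are shown in the order of letters in which they were deposited, with capitals over the whole tag because all of it identifies the reagent.
CD80: GACCCGGTGTCATTT
MHCII: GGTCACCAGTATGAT
UEA1 (a lectin, read through a streptavidin-phycoerythrin tag): AACCTTTGCCACTGC
Sca1: TTCCTTTCCTACGCA
Podoplanin: GGGCGATTTAGTGTG
CD63: ATCCGACACGTATTA
CD49a: CCATTCATTTGTGGC
CD40: ATTTGTATGCTGGAG

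The libraries held 1430 to 4738 cells and 21281389 to 45480790 UMIs. Of the 15 barcodes that occurred in more than 1 library, 1 belonged to a selected cell. The median selected cell held 10931 and 15194 UMIs in the 1-week wells and 8787 and 7295 UMIs in the 16-week wells. Levels are given as CPM, the UMIs of a gene per 1000000 summed UMIs. Ddx3y, a Y-linked gene, was at 31.3 and 6.90 CPM in the selected cells of the 1-week wells and at 0 in both 16-week wells, so sex, age and pool cannot be told apart.

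The selected cells carried the other markers of their name, though unevenly. Fezf2, another regulator of organ-restricted genes, was at 345, 205, 323 and 283 CPM in the 1-week replicates 1 and 2 and the 16-week replicates 1 and 2. Ccl21a-rich TEC, defined by the same gates with 0 Aire UMIs and at least 0.1% of UMIs from Ccl21a, held 23.6, 28.5, 134 and 136 CPM of Fezf2. Ubd, a ubiquitin-like protein, was at 954, 1689, 1750.1 and 1493 CPM in the selected cells against 189, 179, 525 and 535 CPM. Both genes were higher in every library. Cd52, a small surface glycoprotein, and Cd80 were likewise higher in all 4 libraries, by 2.11 ± 0.32 and 1.83 ± 0.33 on the log2(CPM + 10) scale (SD, n = 4 libraries), the scale of all log2 ratios of RNA below. These cells were chosen by RNA, so RNA differences from other cells are descriptions and none was tested.

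The name fitted less well near the selection limit, as the plot of marker levels by Aire count shows. At 16 weeks Fezf2 was at 109, 122 and 137 CPM in cells with 0, 1 and 2 Aire UMIs, then at 192 CPM with 3 to 5, 365 CPM with 6 to 10 and 530.0 CPM with 11 or more. Ccl21a, a chemokine of immature medullary cells, was at 6839.8 CPM with 2 Aire UMIs and 1154 CPM with 11 or more. Krt5, a basal keratin, was at 1076 and 284 CPM in the same classes. For these 3 genes the cells with 2 Aire UMIs lay nearer to the cells with 1 than to those with 11 or more. At 1 week, where the classes held 12 to 24 selected cells each, the wells differed. Fezf2 was at 6.84, 263, 468 and 699 CPM in the 4 classes from 2 UMIs upward in replicate 1 and at 245, 89.6, 198 and 243 CPM in replicate 2, so it rose with Aire in 1 of the 2 wells. Over both wells Ccl21a was at 4323, 7006, 2358 and 265 CPM and Krt5 at 96.5, 496, 210.0 and 114 CPM in these classes. Both were highest with 3 to 5 Aire UMIs, but this peak came from replicate 2, at 11884 and 824 CPM. In replicate 1 Ccl21a was at 4468, 188, 275 and 232 CPM and Krt5 at 34.2, 37.5, 30.5 and 194 CPM. Just inside the limit, 446 cells at 16 weeks and 24 at 1 week had exactly 2 Aire UMIs, and just outside it 1048 and 85 cells had 1.

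**Figure D1:**
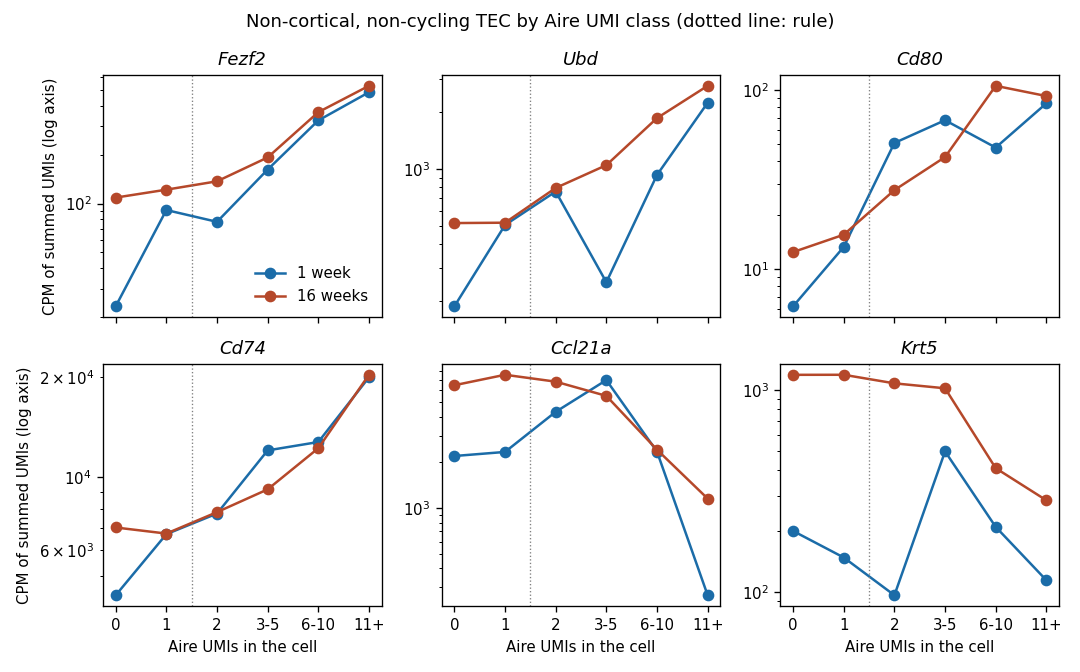
Level of marker genes (CPM of summed UMIs, log axes) in non-cortical, non-cycling TEC by the number of Aire UMIs in the cell, at 1 week and 16 weeks, with a dotted line at the selection limit. At 16 weeks Fezf2 was at 137 CPM in cells with 2 and 530.0 CPM in cells with 11 or more Aire UMIs, and Ccl21a at 6839.8 and 1154 CPM.

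Aire UMIs were also found in collagen-rich stromal cells, which should lack the gene. In the 4 libraries 6.397, 6.53, 17.6 and 20.9% of these cells held 2 or more Aire UMIs, at median depths of 10553 to 17338 UMIs. Stromal cells with 6 or more Aire UMIs were 0 of 297 and 0 of 291 cells at 1 week, which allows up to 1.01% and 1.03% as 3 counts of the total, with exact 95% upper limits of 1.23 and 1.26%. At 16 weeks they were 0.683 and 1.54%. The part of free RNA in the selection was not tested, and results are therefore also given for the 513 selected cells with 6 or more Aire UMIs (16, 18, 137 and 342 in the 4 libraries).

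The selected cells made up a larger share of TEC at 16 weeks. They were 2.66% (exact 95% binomial interval 1.91 to 3.59) and 2.92% (2.02 to 4.07) of TEC in the 1-week wells. In the 16-week wells they were 28.4% (25.9 to 31.1) and 33.9% (32.2 to 35.7). The wells of the ages did not overlap, and the means differed by 28.4 percentage points. Intervals and limits of this kind cover counting error only. The 1-week wells held 41 and 33 selected cells. These numbers moved with the cortical limit, to 17 and 16 at 0.05% and 66 and 57 at 0.2%. The difference in share was then 29.0 and 26.9 percentage points. With none of the 5 cycle genes detected 12, 8, 182 and 593 cells remained in the 4 libraries. Most 1-week selected cells thus held RNA of at least 1 cycle gene, a larger part than at 16 weeks. At 1 week most TEC were cortical or cycling, and among non-cortical, non-cycling TEC the shares were 17.9, 15.1, 31.5 and 37.7% in the 4 libraries. Selected cells with 6 or more Aire UMIs were 6.99, 8.26, 12.5 and 12.7% of those cells, and their share of all TEC differed by 10.0 percentage points, so the ages still did not overlap and the gap was narrower. The 1-week shares of all TEC lay below the share of stromal cells with 2 or more Aire UMIs, and the stromal share was higher at 16 weeks too. These shares are not on the same measure, since no cortical or cycle limit was set for stroma. Stromal cells were also deeper at 1 week, with medians of 17338 and 16355 UMIs against 5319 and 5084.5 in cTEC (cortical TEC).

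Genes detected per cell were compared at equal depth, as the expected number of genes in 5000 UMIs drawn from each cell. Of the selected cells 1001 had enough UMIs, and 12 at 1 week and 422 at 16 weeks were left out. More Ccl21a-rich TEC were lost, with 17 of 31, 12 of 28, 202 of 333 and 457 of 685 left out in the 4 libraries. The comparison below thus rests on the deeper of those cells. The median selected cell held 2105 and 2107 genes in the 1-week wells and 2137 and 2159.9 genes in the 16-week wells. Cells spread widely beside these steps, from 2032 genes at the 25th to 2271 at the 75th percentile in the largest library.

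At this depth the selected cells did not hold more genes per cell than Ccl21a-rich or cortical TEC. Ccl21a-rich TEC had medians of 2215, 2249, 2194 and 2218 genes, above the selected cells of the same library in 4 of 4 libraries, and the difference was -91.9 ± 41.7 genes (SD, n = 4 libraries). Against cortical TEC (cTEC, with 0 Aire UMIs) it was -124 ± 32.6 genes, lower in 4 of 4 libraries. Against the remaining TEC without Aire it was -73.6 ± 67.4 genes, lower in 3 of 4 libraries. Cells with 6 or more Aire UMIs had a lower median than those with 2 to 5 in every library, by a mean difference of -37.9 ± 14.7 genes. With 4 libraries the smallest two-sided exact p of a test of signs is 0.125, so none was run.

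Without equal depth the order was the opposite. The median selected cell held 3145, 4385, 3044 and 2734 genes as deposited and the median Ccl21a-rich TEC 2120, 2226, 1905 and 1822 genes, at median depths of 4537, 5377, 4300 and 3831 UMIs in the latter. The selected cells were thus also the deeper cells, in every library.

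Between the ages the means of the medians differed by 42.8 genes, with 16 weeks higher and no overlap of wells. In cells with 6 or more Aire UMIs the medians were 2091, 2100.4, 2096 and 2140.5 genes, the ages overlapped and the difference was 22.5 genes. At a depth of 2000 UMIs it was -11.6 genes, so no direction with age is read from the number of genes per cell.

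**Figure D2:**
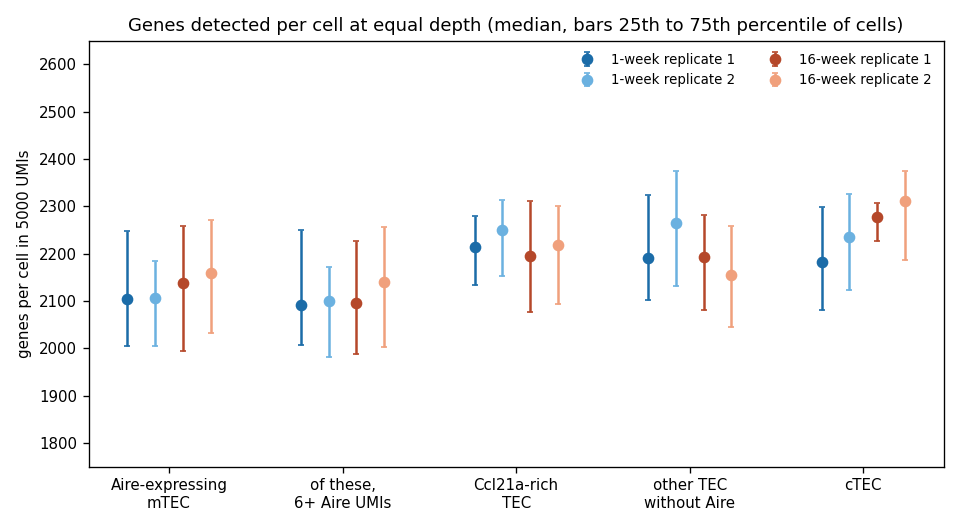
Genes per cell in 5000 UMIs for kinds of TEC, with the median of cells as a point and the 25th to 75th percentile as a bar for each of the 4 libraries (the axis does not start at 0). Medians of the selected cells were 2105 to 2159.9 genes and those of Ccl21a-rich TEC 2194 to 2249 genes.

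Over many cells the order turned. When cells were combined at 5000 UMIs each, 14 selected cells of a library together held 10269, 10189, 10403 and 10374 genes, and 14 Ccl21a-rich TEC held 9489, 9926, 10010.2 and 10008 genes. The combined selected cells were thus higher in every library, although the median selected cell held fewer genes on its own. Other TEC without Aire held 10009, 10272, 9994 and 9977 genes in 14 cells, and were above the selected cells in 1-week replicate 2. At 16 weeks 200 selected cells held 20456 genes, 200 of those with 6 or more Aire UMIs held 21044, and 200 Ccl21a-rich TEC held 18735. At 1 week the order by Aire was the opposite over 20 cells of both wells, with 11587 genes with 6 or more Aire UMIs and 11648 with 2 to 5. The wells differed over 10 cells, with 8704 against 8960 genes in replicate 1 and 8867 against 8741 in replicate 2. In 50 selected cells 15387 genes were found at 1 week and 15330 at 16 weeks. Other TEC without Aire held 14617 and 14333 genes in 50 cells at the 2 ages, fewer than the selected cells.

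**Figure D3:**
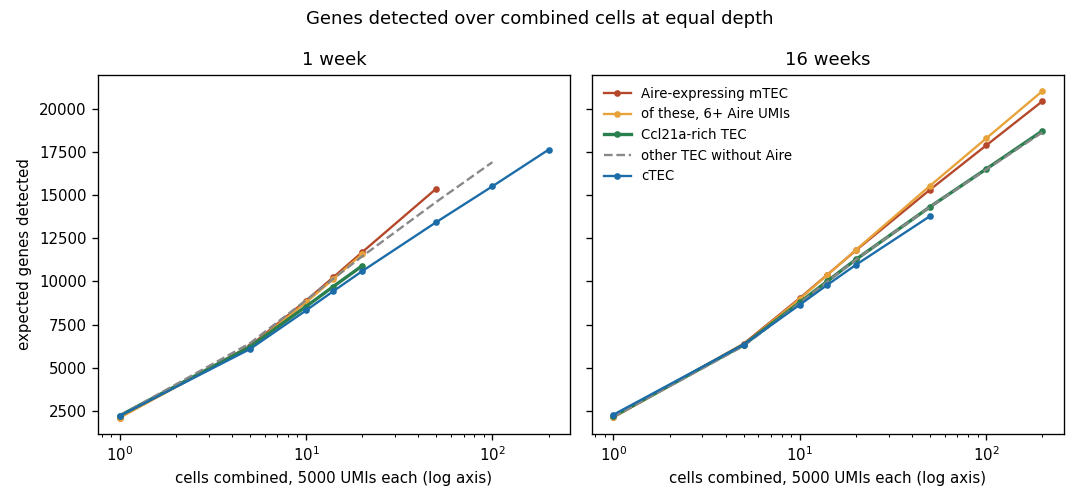
Expected number of genes over combined cells, each thinned to 5000 UMIs, against the number of cells at 1 week and 16 weeks. For single cells the selected cells lie below Ccl21a-rich TEC, and at 16 weeks 200 cells reached 20456 against 18735 genes.

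Organ-restricted genes were followed with 97 genes from lists for 10 groups of organs. Their sum was 32.5, 27.1, 27.6 and 29.7 UMIs per 10000 in the selected cells and 5.71, 4.65, 8.55 and 7.85 in Ccl21a-rich TEC. The difference was 22.5 ± 3.20 UMIs per 10000 (SD, n = 4 libraries), higher in 4 of 4 libraries, and the ages overlapped. In stroma the sum was 3.45 to 4.80, in cTEC 2.47 to 4.66 and in other TEC without Aire 5.78 to 16.4 UMIs per 10000. The sum did not follow the Aire count in every well. It was 17.0, 39.1, 30.6 and 31.4 with 6 or more Aire UMIs and 47.5, 9.23, 24.8 and 28.7 with 2 to 5, so 1-week replicate 1 had the opposite order to the others. Few cells carried much of it, since 7.32, 9.09, 3.76 and 2.46% of the selected cells gave 1% or more of their UMIs to these genes. Among the selected cells 44 at 1 week and 460 at 16 weeks held 3 or more UMIs of thymocyte and other haematopoietic genes, and without them the difference was 12.2 UMIs per 10000.

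Single antigens were found in few cells each. At 5000 UMIs 18 of the genes were seen in at least 5% of the selected cells, 44 in 1 to 5% and 35 in less than 1%. Serpina1a had no UMI in a selected cell. The median gene was seen in 1.80% of the selected cells, 0.771% of Ccl21a-rich TEC, 0.306% of cTEC and 0.530% of stromal cells. These shares pool ages in unlike parts. At this depth 62 selected cells were from 1 week and 939 from 16 weeks, against 595 and 58 cTEC. The mean number of antigen genes in a cTEC was 1.24, 1.25, 2.06 and 1.98 in the 4 libraries. A larger share of selected than of Ccl21a-rich cells held 80 of the genes, a smaller share held 15, and 2 were equal. For 16 genes more than 50% of the UMIs came from 1 selected cell. A selected cell held a mean of 3.71, 3.89, 3.87 and 3.80 antigen genes in the 4 libraries, against 1.86, 2.25, 2.56 and 2.62 in Ccl21a-rich TEC. The means were 4.57, 4.94, 4.75 and 4.67 with 6 or more Aire UMIs and 3.14, 2.36, 3.23 and 3.23 with 2 to 5, so the number of antigen genes per cell, unlike their sum, was higher with more Aire in every library.

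The most widespread antigen was Csn2, the milk protein beta-casein, found in 53.9% of the selected cells (exact 95% interval 50.8 to 57.1). It was in 70.5% of those with 6 or more Aire UMIs, 34.7% of Ccl21a-rich TEC and 19.6% of stromal cells. In stroma it was in 12.9% at 1 week and 21.7% at 16 weeks, and the part of free RNA was not tested. Its level was 565, 1259, 698 and 527 CPM in the selected cells and 82.6, 65.2, 118 and 112 CPM in Ccl21a-rich TEC. Reg3g, an intestinal antimicrobial lectin, was in 41.9% of selected cells, 32.6% of Ccl21a-rich TEC and 20.2% of stromal cells, and 18.2% of its UMIs were in 1 cell. Dsg1a, a desmosomal cadherin of skin, was in 18.2% of selected cells, 9.51% of Ccl21a-rich TEC and 2.12% of stromal cells, and in 29.0% of those with 6 or more Aire UMIs. These shares pool both ages, and 939 of the 1001 selected cells were from 16 weeks. At 1 week Dsg1a had the opposite order, in 16.1% of 62 selected cells and 26.7% of 30 Ccl21a-rich TEC.

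Mbp, a myelin protein, was in 18.6% of selected cells, 12.1% of Ccl21a-rich TEC and 5.54% of stromal cells. Pcp4, a calmodulin-binding protein of neurons, was in 13.4% of selected cells, 10.0% of Ccl21a-rich TEC and 6.26% of stromal cells. Fabp9, a fatty acid-binding protein of testis, was in 10.6% of selected cells, 7.46% of Ccl21a-rich TEC and 3.56% of stromal cells. The shares of these 3 genes lay nearer to those of Ccl21a-rich TEC than to those of stroma. Pyy, a gut and islet peptide, was in 10.3% of selected cells, 8.997% of Ccl21a-rich TEC and 5.25% of stromal cells. By level 2 of 68 antigens tested, Csn2 and Pyy, were at least 2-fold above Ccl21a-rich TEC in every library, beside 1.17% of all genes. For Pyy, 258 of the 271 1-week UMIs were in 1 selected cell. Bpifa1, a secreted airway protein, was in 13.7% of selected cells, 12.3% of Ccl21a-rich TEC and 6.70% of stromal cells, and Krt10, a keratin of upper skin layers, in 10.8% of selected cells, 10.8% of Ccl21a-rich TEC and 10.3% of stromal cells. Cryab, a lens crystallin, was in 18.9% of selected cells, 18.5% of Ccl21a-rich TEC and 30.0% of stromal cells. Its share was below that of stroma, and no difference is read from it.

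Of 15926 genes compared with Ccl21a-rich TEC, 186 (1.17%) were at least 2-fold higher and 13 (0.0816%) at least 2-fold lower in all 4 libraries. Laptm5, a lysosomal membrane protein, was at 287, 291, 323 and 249.8 CPM against 7.87, 12.2, 54.7 and 58.0 CPM. Hdc, the enzyme that makes histamine, was at 202, 250.1, 344 and 305 CPM against 11.8, 16.3, 36.2 and 59.8 CPM. These genes were in 55.1% and 54.7% of the selected cells, unlike most antigens. Cdx1, an intestinal transcription factor, was higher by 2.76 ± 0.90 on the log2 scale, and Cdkn1c, a cell cycle inhibitor with 22.6% of its UMIs in 1 cell, by 2.92 ± 0.87. The other leading genes were Aire, which the rule used, Gm29461, Csn2, Ankrd33b, Calcb, Lypd8, Gm48239, Tbc1d4, Utf1, Lyz2, Ncf1, Ttn, Lgals2, Il13, Fhad1 and Dscaml1. Lgals2, a lectin of the gut, had 45.4% of its UMIs in 1 cell. Lyz2, a lysozyme of myeloid cells, was at 65.4, 878, 273 and 246 CPM and thus varied between the 1-week wells. A list of 10 genes of haematopoietic cells other than thymocytes, Lyz2 among them, moved with these genes. Its sum was 162, 997, 345 and 330.1 CPM in the selected cells and 27.5, 65.2, 120.01 and 122 CPM in Ccl21a-rich TEC, higher in all 4 libraries, and its part in the ratios was not tested.

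The 10 genes with the lowest ratios were Lifr, Gm8113, Sdk2, Slc7a11, Gm45540, Gm47087, Krt5, Lamb3, Wfikkn2 and Apoe. Lifr, the receptor of leukaemia inhibitory factor, was at 73.6, 145, 239 and 265 CPM in the selected cells and 626, 526, 612 and 590.4 CPM in Ccl21a-rich TEC. Lamb3, a laminin chain of the basement membrane, differed by -1.66 ± 0.94 on the log2 scale, and Krt5, which the rule used, by -1.67 ± 0.80. The groups were apart in every library for each of these 3 genes.

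Some antigen presentation genes were higher than in Ccl21a-rich TEC, beside 1.17% of all genes. Of 16 genes 4 (Ctss, Cd80, Cd40, Icosl) were at least 2-fold above Ccl21a-rich TEC in all libraries, and the list's median log2 ratio was 0.64 against 0.03 over all genes. Icosl, the ligand of the co-stimulatory receptor ICOS, was higher by 2.11 ± 0.44 and Ctss, a protease that processes the MHC class II invariant chain, by 1.74 ± 0.32. Cd74, the invariant chain, was at 13455, 14273, 14121 and 11578 CPM in the selected cells and H2-Aa, a class II chain, at 4719.9, 5626, 4920.0 and 4356 CPM. In the list for the RANK, CD40 and NF-kB pathway, which drives mTEC maturation, 4 of 16 genes, beside the same 1.17%, were 2-fold higher in all libraries, namely Tnfrsf11b, the decoy receptor for RANK ligand, Cd40, Traf1 and Irf4. Nfkbia, an inhibitor of NF-kB, was at 1138, 1168, 1133 and 1161 CPM and differed from Ccl21a-rich TEC by 0.97 ± 0.33.

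Of 17 genes for partners and co-factors of Aire, only Fezf2 was 2-fold higher in all libraries, beside 1.17% of all genes. Sirt1, a deacetylase that acts on Aire, differed by 1.28 ± 0.56 and did not reach 2-fold in every library. Top1, Chd4 and Atf7ip, which encode a topoisomerase and 2 chromatin proteins, differed by -0.16 ± 0.22, -0.19 ± 0.15 and -0.35 ± 0.18. The interferon-responsive list had a median of -0.93 over 12 genes, though none was 2-fold lower in all 4 libraries, beside 0.0816% of all genes. Isg15, a ubiquitin-like protein, differed by -1.04 ± 0.43 and Ifi27l2a by -0.96 ± 0.33.

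The age comparison covered 15049 genes with at least 50 UMIs in the selected cells. At a ratio of 2 or more with wells that did not overlap, 374 genes (2.49%) were higher and 127 (0.844%) lower at 16 weeks, and the median log2 ratio over all genes was 0.06. Among cells with 6 or more Aire UMIs 489 (4.13%) were higher and 108 (0.913%) lower of 11833, and 209 and 59 of the genes first named were called in both. The 1-week values rested on 74 cells, so 1 cell could carry a gene. For 39 of the lower genes (30.7%) more than 50% of the 1-week UMIs were in 1 cell, and for 17 of the higher genes (4.55%) more than 50% of the 16-week UMIs. At 1 week 29 of the higher genes had no UMI. The counts moved to 591 higher and 276 lower without 1-week replicate 2 and to 273 lower without 1-week replicate 1. They were 812 and 207 without cells holding haematopoietic RNA. With no cycle gene detected they were 1015 and 233, from 12 and 8 cells in the 1-week wells.

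Several of the 12 most increased genes were found in most 16-week cells and were higher in stroma and other TEC as well. Apoe, a lipid carrier (chr7:19696109-19699188, GRCm38), was at 166 and 155 CPM in the 1-week wells and 1337 and 1598 CPM in the 16-week wells, a log2 ratio of 3.16. It was in 96.9% of the selected cells at 16 weeks, and in stroma it was at 630.3 CPM at 1 week and 3819 CPM at 16 weeks. Gsn, an actin-severing protein, was at 87.2 and 70.7 CPM and then 614 and 726 CPM, with 1291 and 11592 CPM in stroma. C3, the central complement protein, was at 77.7 and 117 CPM and then 672 and 669 CPM, with 426 and 4609 CPM in stroma. The ages did not overlap for any of the 3 genes in the selected cells. In Ccl21a-rich TEC Apoe, Gsn and C3 went from 831, 160 and 128 CPM to 2852, 1195 and 1170 CPM. In cTEC they went from 114, 56.7 and 20.8 CPM to 1509, 368 and 487 CPM. In the selected cells Hspb1, a small heat shock protein, rose by 2.97 on the log2 scale. Ccl11, the chemokine eotaxin, rose by 3.70 and Gm8113 by 3.77. Ccl11 and Gm8113 were at 759 and 668 CPM in 16-week Ccl21a-rich TEC, above the 297 and 241 CPM of the selected cells. Apoe, Gsn, C3, Hspb1 and Chil4 were likewise above the selected cells there. Bpifa1, 2210407C18Rik, Spink5, Fabp9 and Igf1 were below the selected cells in 16-week Ccl21a-rich TEC. The part of free RNA from these cells was not tested.

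The others were found in fewer cells. Bpifa1 (chr2:154142880-154149219) was at 4.09 and 6.90 CPM at 1 week and 362 and 185 CPM at 16 weeks, in 26.4% of 16-week cells, with 35.3% of the UMIs in 1 cell. Chil4, a chitinase-like protein, had 0 and 2 UMIs in the 1-week wells and 594 and 728 in the 16-week wells, a log2 ratio of 3.00, and the 95% counting interval of the ratio without the added 10 CPM was 3.90 to 8.80. 2210407C18Rik, Spink5, a protease inhibitor of skin, and Fabp9 rose by 3.36, 2.97 and 2.76 on the log2 scale, in 17.0%, 13.7% and 16.0% of 16-week cells. Igf1, an insulin-like growth factor, rose by 2.71 and was in 40.6% of them. All 12 were also called with 6 or more Aire UMIs, but at smaller log2 ratios for some, of 2.23 for Bpifa1, 2.11 for Ccl11, 2.42 for Gm8113 and 1.70 for Spink5.

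Most of the 12 most decreased genes were carried by single 1-week cells. Gzmd, a granzyme, had 137 UMIs in 1-week replicate 1 and 1 in replicate 2, and 135 of these were in 1 cell. Lcn11, Mucl1, Cytl1, Tnnt1, Omt2b, Tm4sf20 and Ctrb1 had 78.4% to 92.5% of their 1-week UMIs in 1 cell, and Gm4841 had 48.4%. Their ratios describe those cells rather than the 1-week group. Mdk, the growth factor midkine (chr2:91929805-91932297), was broader, in 86.5% of 1-week cells, at 756 and 623 CPM at 1 week and 185 and 167 CPM at 16 weeks. It was lower at 16 weeks in stroma too (467 and 118 CPM). Fdps, an enzyme of cholesterol synthesis, was at 198 and 136 CPM and then 35.7 and 32.3 CPM. Prss16 was at 386 and 378 CPM and then 77.6 and 82.6 CPM, but the rule limited this gene, and in stroma it was at 379 and 35.5 CPM. Gzmd, Tnnt1, Omt2b, Prss16, Fdps and Mdk were also called among cells with 6 or more Aire UMIs, and the others were not.

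**Figure D4:**
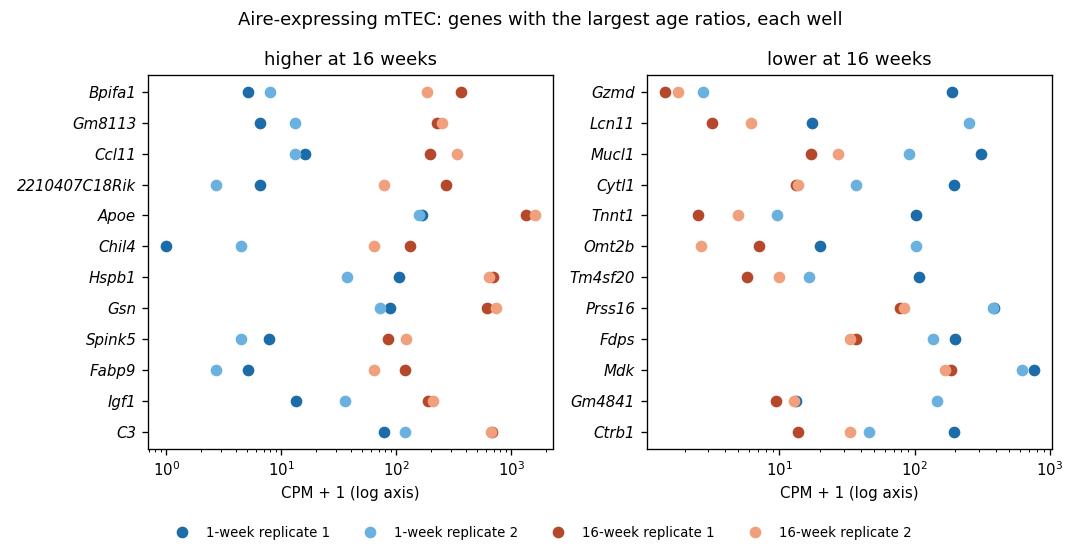
CPM + 1 (log axis) of the 12 genes with the largest age ratio in each direction in the selected cells, with 1 point for each well. The 16-week wells lie above both 1-week wells for every increased gene, and among decreased genes the 1-week wells lie far apart for some, as for Gzmd with 187 and 1.72 CPM.

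The cells' own markers did not pass the age rule. Aire, which the rule used, was at 466, 654, 639 and 642 CPM, and nothing is read from its age values. Fezf2, Ubd, Cd52 and Cd80 had log2 ratios of 0.05, 0.29, 0.88 and -0.09. Nor did any gene of the antigen presentation, RANK, Aire partner or interferon lists pass, which does not show that their levels were equal.

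Among basal and intertypical genes 3 of 10 were higher at 16 weeks, beside 2.49% of all genes. Krt5, which the rule used, was at 91.3, 291, 682 and 771 CPM in the 4 libraries, Krt14 rose by 1.65 on the log2 scale, and Ly6a, which encodes Sca1, was at 219, 255, 734 and 885 CPM. The wells of the ages did not overlap for these genes, while Ccl21a had a log2 ratio of 0.57 and was not called. Of 10 cortical genes 4 were lower, beside 0.844% of all genes, namely Psmb11 and Prss16, which the rule used, Tbata and Ccl25. Ccl25, a chemokine for thymocyte precursors, was at 1318, 755, 429.8 and 367 CPM. Tbata had a log2 ratio of -1.07. Among cells with 6 or more Aire UMIs the log2 ratios were 0.07 for Tbata, -0.94 for Ccl25 and 0.94 for Krt14, and none of these 3 genes was called. In those cells 2 of 10 basal and intertypical genes were higher, beside 4.13% of all genes. Of 10 cortical genes 3 were lower, beside 0.913%.

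Genes of specialised mTEC were called higher in several lists, beside 2.49% of all genes, and 4.13% among cells with 6 or more Aire UMIs. In the tuft list 5 of 10 were higher (Dclk1, Trpm5, Avil, Gnat3 and Ltc4s), of which Ltc4s, an enzyme of leukotriene synthesis, was in 34.6% and Gnat3, a taste G protein, in 1.74% of the selected cells. In the microfold list 3 of 8 were higher (Gp2, Ccl20 and Pglyrp1), and Gp2, a receptor for bacteria, was at 1.36, 5.17, 7.19 and 77.6 CPM. In the muscle list 4 of 8 were higher (Myog, Ckm, Mylpf and Acta1), and Myog, a muscle transcription factor, was at 0, 0, 104 and 8.50 CPM. For both Gp2 and Myog 1 of the 16-week wells was far above the other. Among cells with 6 or more Aire UMIs 2 of 7 tuft genes, 4 of 7 microfold genes and 2 of 6 muscle genes were higher, and 1 muscle gene was lower. In the keratinocyte list Krt10, Sbsn and Krtdap were higher among 7 genes tested, and in the neuroendocrine list Chgb was higher and Stmn2 lower among 7. None of the 6 ciliated genes was called. Of 7 neuroendocrine genes tested against Ccl21a-rich TEC, Insm1 and Syt1 were at least 2-fold higher in all libraries, beside 1.17% of all genes. Neither was called with age. Of 66 organ antigens tested 10 were higher (Acta1, Apoc3, Bpifa1, Ckm, Cryaa, Fabp1, Fabp9, Krt10, Mylpf, Tnni1) and 3 lower (Ctrb1, Slc12a3, Tff2), with a median log2 ratio of 0.35. Among cells with 6 or more Aire UMIs 23 of 57 were higher and 1 lower, but the 1-week side was 34 cells. In these cells the sum of the antigens was 17.0, 39.1, 30.6 and 31.4 UMIs per 10000 in the 4 libraries. The mean number of antigen genes per cell was 4.57, 4.94, 4.75 and 4.67. The ages overlapped for both, so no general rise with age is read from the count.

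Of 11 immediate early and heat shock genes Hspa1a and Hspa1b were higher at 16 weeks, beside 2.49% of all genes. They rose by 1.84 and 1.99 on the log2 scale, and Fos, Jun, Junb and Egr1 were not called. RNA of other cells was present in the selected cells. The summed thymocyte list was at 149, 136, 113 and 84.1 CPM and the other haematopoietic list at 162, 997, 345 and 330.1 CPM, with every listed gene above 0, and no gene of either was called with age. The fibroblast list was at 488, 818, 613 and 752 CPM, with Dcn higher and Col1a2 and Col3a1 lower at 16 weeks, all 3 of which the rule limited. Endothelial genes summed to 377, 34.5, 168 and 238 CPM and red cell genes to 61.3, 34.5, 82.4 and 78.0 CPM, and none was called. The part of such RNA in the age calls was not tested.

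Surface tags were not used by the selection rule, although the sort used EpCAM1. Values are log2(x + 1), where x is a tag's share of the cell's tag counts times the mean total of 4134 counts per cell. The total itself differed, with medians of 13737, 16481, 10171.5 and 6864 tag counts on selected cells in the 4 libraries. On Ccl21a-rich TEC the medians were 6001, 6607, 2733 and 1731. A lower value is therefore a lower share and need not mean fewer counts per cell. Of 27 tags 3 (11.1%) were higher on the selected cells than on Ccl21a-rich TEC in all 4 libraries and 13 (48.1%) were lower. CD80, a co-stimulatory protein, was at 3.76, 4.26, 3.86 and 3.68 against 2.23, 1.83, 2.93 and 2.62, a difference of 1.49 ± 0.68 (SD, n = 4 libraries). MHCII was at 10.6, 10.5, 10.9 and 10.8 against 10.3, 10.1, 10.1 and 10.1, a difference of 0.58 ± 0.25. The groups did not overlap for either tag. CD117, the receptor Kit, differed by 0.24 ± 0.25, and was higher in 2 of 4 libraries with 6 or more Aire UMIs.

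The lower tags were led by Podoplanin and Sca1, which mark immature and intertypical TEC. Podoplanin was at 3.19, 3.15, 2.65 and 2.53 on the selected cells and 6.19, 5.26, 4.28 and 4.15 on Ccl21a-rich TEC, a difference of -2.09 ± 0.65. Sca1 differed by -2.03 ± 0.20. CD49a, an integrin chain, differed by -1.62 ± 0.79 and CD63, a tetraspanin, by -1.58 ± 0.36. CD73, CD9, CD200 and CD270 differed by -1.34, -1.34, -1.29 and -1.29, and MadCAM1, Epcam, CD54, CD300LG and CD83 by less. For Podoplanin, Sca1 and CD80 the differences were wider among cells with 6 or more Aire UMIs, at -3.01, -3.12 and 2.07.

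The direction of some tags depended on the total. MHCII made up 40.1, 37.8, 64.3 and 60.5% and UEA1 45.6, 48.0, 24.3 and 27.3% of the selected cells' tags in the 4 libraries. Without both in the total 7 tags were higher and 9 lower in all libraries, and Epcam, CD54 and CD83 turned to higher in 3 of 4 libraries. UEA1 differed by -0.14 and was higher in 1 of 4 libraries, but by 0.75 without both in the total and by 1.02 with a centred log ratio, higher in 4 of 4 each time. With a centred log ratio Epcam, CD54 and CD86 were higher in 4 of 4 and CD270 in 2 of 4 libraries. CD80 and MHCII were higher, and Podoplanin, Sca1, CD49a, CD63, CD73, CD9, CD200 and MadCAM1 lower, in all 4 libraries under each of the 3 scalings.

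**Figure D5:**
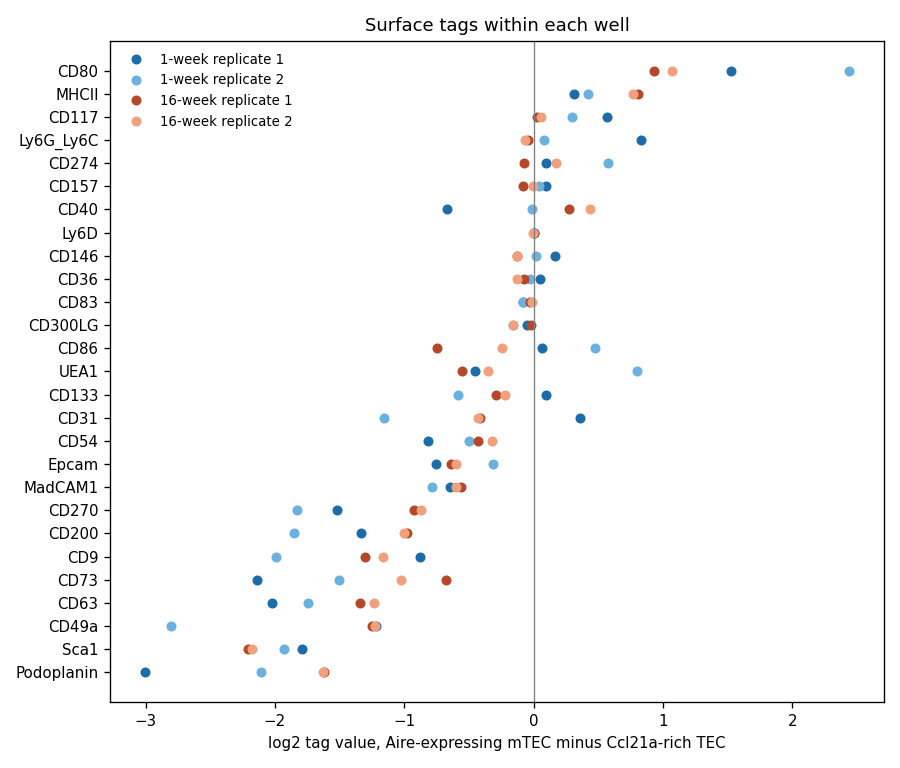
Difference in log2 tag value between the selected cells and Ccl21a-rich TEC for 27 surface tags, with 1 point for each well. CD80 lies above 0 in all 4 wells (mean 1.49), and Sca1 and Podoplanin lie below 0 in all 4 (means -2.03 and -2.09).

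With age 3 tags (11.1%) were higher and 5 (18.5%) lower on the selected cells by at least 0.5 with wells that did not overlap. Sca1 was at 3.80, 4.07, 6.09 and 6.27 in the 4 libraries, a change of 2.25, and of 1.80 with 6 or more Aire UMIs. Its tag and its gene Ly6a thus both rose. CD9 and CD49a rose by 0.73 and 0.58, and neither was called with 6 or more Aire UMIs, whereas MHCII was, with a change of 0.75. Without 1-week replicate 2 the number of higher tags was 1. CD40 was at 4.94, 5.36, 3.78 and 3.75, a change of -1.39, while Cd40 RNA had a log2 ratio of -0.39 and was not called. CD63, Epcam, UEA1 and Podoplanin changed by -1.24, -0.84, -0.72 and -0.58. All 5 lower tags were also called with 6 or more Aire UMIs, and without MHCII and UEA1 in the total Sca1 changed by 2.46 and CD40 by -1.22.

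Most of these tag changes were shared with other cells. Sca1 was at 5.59, 6.002, 8.30 and 8.45 on Ccl21a-rich TEC and at 4.55, 4.67, 7.24 and 6.85 on cTEC in the 4 libraries. On stroma it was at 6.92, 6.83, 8.95 and 8.92. For Sca1, CD9, CD40, CD63 and Epcam the wells of the ages were apart in the same direction on Ccl21a-rich TEC, cTEC and stroma too, and for CD49a, UEA1 and Podoplanin they were not in each of these.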

How the data were processed

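Single-cell mRNA and surface tags were measured in 4 wells. The authors aligned reads with STARsolo 2.7.9a to mm10 (submitters' processing notes), kept cells with 2000 or more UMIs and deposited UMI counts per gene and tag, not normalised, with the tag sequences. The labels name version 2 and the methods version 3 of the kit. Age and well were read from cell names. Of 55487 gene identifiers 55141 matched a symbol in GENCODE M21 (GRCm38). The cells, lists and comparisons were chosen with earlier results of these data known. Counts were summed per well and compared as log2(CPM + 10), with no p-value (Python 3.11.15, NumPy 2.4.6). Genes per cell in 5000 UMIs came from a closed formula and antigen shares from 1 seeded draw, with shallower cells left out. The text names the markers, the 12 largest age ratios each way with 100 or more UMIs, the 20 largest ratios against Ccl21a-rich TEC, called and abundant list members, and the 10 most widespread antigens. Doublets were kept. Scrublet (scanpy 1.11.5) called 14 cells, too few to have worked, so an alternative removed the 253 highest scores, 36 of them selected cells. Other alternatives changed the selection limits, depth, scaling, pseudocount, fold and libraries. Steps were tested on simulated data.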

Additional observations from a re-analysis of the deposited data

Results flagged for a closer look

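For 5 of 27 surface tags the selected cells lay on one side of Ccl21a-rich TEC in both 1-week wells and on the other side in both 16-week wells. The difference between the ages was not tested, and each age was 1 pool. The CD40 tag differed by -0.67 and -0.02 at 1 week and by 0.27 and 0.44 at 16 weeks, a change of 0.70, with the same signs in cells with 6 or more Aire UMIs. The CD86 tag changed by -0.76, from a mean of 0.27 to -0.50. The Ly6G_Ly6C tag changed by -0.51, with 0.83 and 0.08 in the 1-week wells. Neither of these 2 tags kept its signs in cells with 6 or more Aire UMIs. The change of side depended on the scaling. CD40 and Ly6G_Ly6C were higher on the selected cells in 4 of 4 libraries both with a centred log ratio and without MHCII and UEA1 in the total, and CD86 in 4 of 4 and 3 of 4. The CD146 and CD157 tags kept their signs in cells with 6 or more Aire UMIs but were counted on 19.2% and 9.34% of the selected cells. They changed by -0.22 and -0.11. With a centred log ratio each was higher in 1 of 4 libraries, and without MHCII and UEA1 CD146 was higher in 2 and CD157 in 3 of 4.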

How the results depend on the processing

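Of 134 values recomputed with all libraries kept, 93 moved by less than the spread of the wells or, for counts, by 1.5 times or less. The cause of the others was not tested. No paired analysis was possible between the ages because the results come from no test and same-numbered wells hold different pools, while differences between kinds of cell were taken within each library. The alternatives with 6 or more Aire UMIs and without selected cells holding 3 or more haematopoietic UMIs were chosen after seeing the data. The share of TEC (16 weeks minus 1 week, percentage points) was 49.9, 18.9 and 10.0 with 1, 3 and 6 or more Aire UMIs, 33.3 of TEC with 5000 UMIs, 18.1 of non-cortical, non-cycling TEC, 20.1 with the rule applied at 5000 UMIs, 16.7 with no cycle gene and 21.7 without haematopoietic RNA. The age difference in genes per cell was 4.90 and 22.5 with 1 and 6 or more Aire UMIs, -11.6 (reversed), 0.320 and 118 at 2000, 3000 and 10000 UMIs, and 25.1 without mitochondrial and ribosomal genes. The difference in genes per cell from Ccl21a-rich TEC was -25.3 at 2000 UMIs. The antigen difference (UMIs per 10000) was 14.6 and 26.4 with 1 and 3 or more Aire UMIs, 28.0 at a cortical limit of 0.05%, 15.4 with no cycle gene, 12.2 without haematopoietic RNA and 18.5 without the most abundant gene, and 6.403 percentage points as a share of cells. Genes higher and lower at 16 weeks were 1293 and 538 at 1.5-fold, 98 and 29 at 3-fold, 1458 and 298 with a pseudocount of 2, 59 and 20 with 50, 1015 and 233 with no cycle gene, and 812 and 207 without haematopoietic RNA. With 1 or more Aire UMIs 258 genes were lower, 1 tag was higher with age and 8 tags were lower than on Ccl21a-rich TEC. With a centred log ratio 9 tags were higher with age and 9 higher than on Ccl21a-rich TEC. The latter count was 7 without MHCII and UEA1 in the total and 5 against all TEC without Aire. With 1 library left out, genes higher ranged from 393 to 591 and lower from 125 to 276. Leaving out 1-week replicate 1 gave 273 lower genes, and leaving out 1-week replicate 2 gave 591 higher and 276 lower genes. The age difference in genes per cell ranged from 31.4 to 54.1, that against Ccl21a-rich TEC from -104 to -75.1, antigens from 21.1 to 23.7 and the share from 25.6 to 31.2. Tags higher with age ranged from 1 (without 1-week replicate 2) to 3, tags higher than on Ccl21a-rich TEC from 3 to 4 and lower from 13 to 16, and 5 tags stayed lower with age each time.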

Other observations

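Cells that the rule left out for their cell cycle genes alone were also examined. Of TEC with 2 or more Aire UMIs and cortical genes below the limit, 165 held 3 or more of the 5 cycle genes. They were 41 cells at 1 week and 124 at 16 weeks. These were deep cells, with medians of 36948 UMIs at the younger and 19243 UMIs at the older age. Aire was at 298 and 765 CPM in the cycling cells and 549 and 641 CPM in the selected cells, and Fezf2 at 289.7 and 547 CPM against 283 and 294 CPM. Organ antigens were at 17.8 and 16.7 UMIs per 10000, against 30.1 and 29.1 in the selected cells. In 5000 UMIs the median cycling cell held 2197 and 2257 genes, against 2106 and 2153. A further 203 TEC held 2 or more Aire UMIs and fewer than 3 cycle genes and were left out for cortical genes. They were 81 and 56 in the 1-week wells, where 74 cells were selected, and 12 and 54 in the 16-week wells. Cells past both the cortical and the cycle limit are in neither count.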
